A study of Mus musculus with 8 samples.

Results

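The transient receptor potential (TRP) and Piezo channels were described in the mouse corneal button and limbal rim from 10 genes: Trpv1, Trpv2, Trpv3, Trpv4, Trpv6, Trpm4, Trpm7, Trpc1, Piezo1 and Piezo2. They were taken by symbol from the 23420 named genes of 1 deposited table that compares the tissues, and all 10 were found there. The corneal button is the central cornea and the limbal rim is a ring cut from around it, where the cornea meets the sclera and the conjunctiva and where the stem cells of the corneal epithelium lie. Both tissues came from young adult wild type C57BL/6J mice with no treatment, and the rims and the buttons of several eyes were pooled by tissue before RNA was extracted. The labels number 4 samples for each tissue, yet the table's means rest on 1 library per tissue, so no difference below has a replicate check and no test was made.

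TRP and Piezo proteins are cation channels of the cell membrane that turn heat, cold, osmotic swelling, irritants, stretch or touch into an inward current, most of them letting calcium in. The cornea is densely supplied with sensory nerve endings that carry several of these channels, but the cell bodies of those nerves lie in the trigeminal ganglion, outside the dissected tissue. Epithelial, stromal and endothelial cells of the cornea carry TRP and Piezo channels of their own, and in them calcium entry is known to bear on barrier function, volume regulation and wound closure.

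Of the 10 genes, Trpv6 and Trpv2 stood highest in the limbus relative to the cornea, and Piezo2 and Trpm7 stood highest in the cornea. Piezo1, Trpv4 and Trpm4 were well measured in both tissues and somewhat higher in the limbus. Trpv3 and Trpc1 had few reads and nearly equal levels, and Trpv1 had 1 read in all. All ratios are limbus over cornea on a log2 scale, after the reads were divided by the size factors behind the table, 1.03 for the cornea and 0.967 for the limbus. Where a pair of values stands without a tissue, that of the cornea comes first. Brackets give a 95% confidence interval (CI), found by the exact Clopper-Pearson method for the share of limbal reads and turned into a ratio. Such intervals cover counting error only and take each read as independent. Reads copied by PCR are not independent molecules, so the intervals can be too narrow even for that. They also leave out the spread between animals and dissections.

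The stretches of 250 bases before the start are shown for 4 genes, Trpv6 as the gene with the highest measured ratio to the limbus, Trpm7 as a gene on the corneal side, and Piezo1 and Trpv4 as the genes with the most reads per length in the limbus. RefSeq promoter entries of GRCm38.p6 matched 8 of the 10 genes, Piezo2 and Trpm4 being the others. Each is printed 5′ to 3′ in the direction of the gene, with the minus strand shown because all 4 genes lie on it. Capitals mark any of 6 motifs searched on both strands. These were TATAAA for the TATA box, CCAAT for the box that binds NF-Y, GGGCGG for the GC box, CACCC for the box that binds Klf factors, TGANTCA for the AP-1 site and AGGTCA for the hexamer that binds nuclear receptors. Where motifs overlap or touch, their capitals run together.
Trpv6, chr6:41636406-41636655: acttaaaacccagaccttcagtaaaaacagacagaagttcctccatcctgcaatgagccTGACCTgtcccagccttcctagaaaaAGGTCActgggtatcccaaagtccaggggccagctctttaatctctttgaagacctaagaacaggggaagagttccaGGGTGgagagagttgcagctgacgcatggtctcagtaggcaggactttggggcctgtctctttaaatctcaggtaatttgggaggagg
Trpv4, chr5:114658422-114658671: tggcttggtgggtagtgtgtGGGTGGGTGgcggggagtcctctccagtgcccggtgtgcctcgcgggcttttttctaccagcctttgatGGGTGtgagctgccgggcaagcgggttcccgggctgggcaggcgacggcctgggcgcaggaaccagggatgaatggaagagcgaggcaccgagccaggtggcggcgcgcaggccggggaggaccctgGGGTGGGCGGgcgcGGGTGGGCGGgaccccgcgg
Piezo1, chr8:122551330-122551579: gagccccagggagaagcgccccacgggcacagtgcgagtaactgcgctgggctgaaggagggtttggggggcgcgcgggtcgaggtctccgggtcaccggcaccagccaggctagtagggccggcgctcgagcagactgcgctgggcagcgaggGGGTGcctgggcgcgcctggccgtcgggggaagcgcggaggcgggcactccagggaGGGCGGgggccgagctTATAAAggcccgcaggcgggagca
Trpm7, chr2:126876262-126876511: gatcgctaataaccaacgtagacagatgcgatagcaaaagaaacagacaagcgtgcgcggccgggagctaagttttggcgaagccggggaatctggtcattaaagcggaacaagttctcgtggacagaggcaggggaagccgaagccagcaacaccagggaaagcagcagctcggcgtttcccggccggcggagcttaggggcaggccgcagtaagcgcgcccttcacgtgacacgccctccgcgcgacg
The Trpv6 stretch held the nuclear receptor hexamer 2 times, on opposite strands, and the Klf box 1 time, and had a GC content of 49.6%. The Trpv4 stretch, with a GC content of 72.0%, held the GC box 2 times and the Klf box 5 times. That of Piezo1 had a GC content of 74.0% and held the TATA box, the GC box and the Klf box 1 time each. The Trpm7 stretch, with a GC content of 60.4%, held none of the 6 motifs. Over all 32851 promoter entries the share with at least 1 match was 12.4% for the TATA box, 33.8% for the NF-Y box, 32.7% for the GC box, 52.0% for the Klf box, 6.75% for the AP-1 site and 14% for the nuclear receptor hexamer, and the median GC content was 52.4%. These matches describe the letters only, and no binding was measured here.

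Named genes drew 26104317 reads in the cornea library and 21182025 in the limbus library. Of the genes in the table, 13862 had over 3 reads in each library, 3 reads being what a count of 0 allows, and their median log2 ratio was -0.05. Scaling to the total reads in place of the size factors added 0.21 to each log2 ratio and took the share of these genes on the limbal side from 46.6% to 58.9%. The labelled tissues carried their markers: Krt12, the keratin of the differentiated corneal epithelium, had 1137735 corneal and 233324 limbal reads, and Krt15, a keratin of limbal basal cells, had 37738 and 353826. The limbal rim also carried markers of other tissues. Skeletal muscle markers summed to 494 corneal and 13642 limbal normalized reads, and markers of the retina and ciliary body to 604 and 5735. In pooled tissue, fewer cells of a type and less RNA per cell cannot be told apart, which holds for every ratio below.

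With over 3 reads in each library, 8 of the 10 genes had a ratio with an interval. Of these 8, 4 lay on the limbal side beyond counting error (Trpv6, Trpv4, Piezo1 and Trpm4) against 33.2% of all genes tested, and 2 were higher in the cornea (Piezo2 and Trpm7) against 40.6% of all genes tested. At a fold of at least 2, Trpv6 was the 1 gene on the limbal side, where 15.5% of all genes lay, and Piezo2 and Trpm7 were the 2 on the corneal side, where 8.99% of all genes lay. These 8 genes had a median log2 ratio of 0.15, and 0.21 over 9 genes with Trpv2 at its lower bound. The ratios ranged from -2.001 to 4.50, so the genes went both ways and no common direction was seen.

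**Figure D1:**
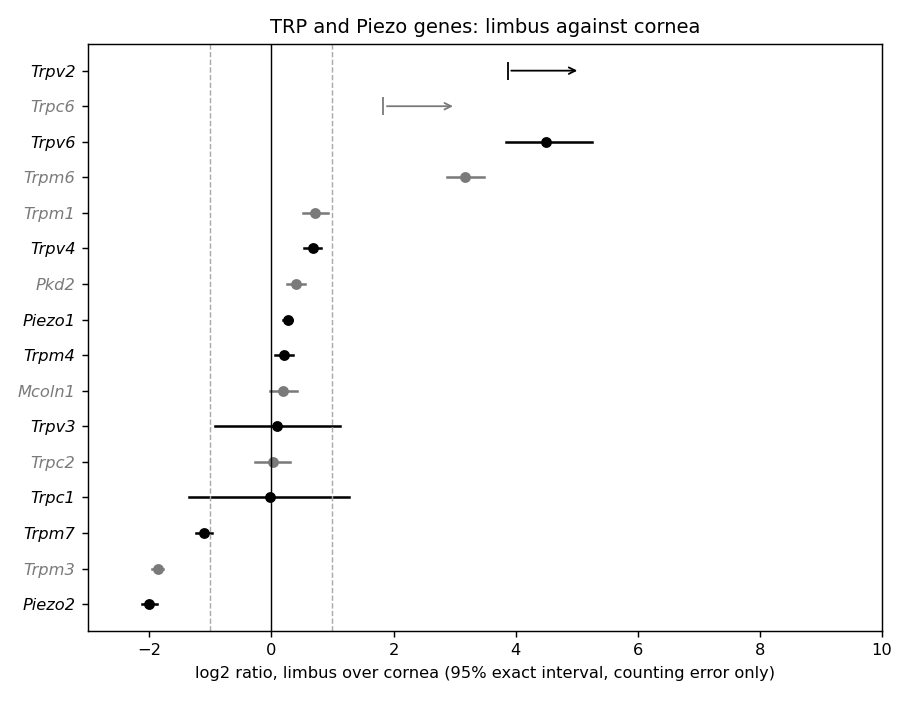
Log2 ratio of limbus over cornea (horizontal axis) for the 10 genes except Trpv1, which has no ratio (black names), and for other TRP genes (grey names). Points are ratios with 95% exact intervals for genes with over 3 reads in each library, arrows start at the lower bound of genes with 0 reads there, and dashed lines mark a fold of 2. Piezo2, Trpm3 and Trpm7 lie left of the dashed line at -1, and Trpv6 at 4.50 and Trpm6 at 3.17 far to the right.

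The Piezo genes encode the large mechanically gated cation channels of vertebrates, which open when the membrane is stretched. Piezo1 is known from blood vessels and many epithelia, and Piezo2 from touch and position sense in sensory neurons and Merkel cells. Piezo1 (GRCm38, chromosome 8, 122481698 to 122551329, minus strand) had 2479 corneal and 2788 limbal reads, or 2398 and 2882 normalized reads. It was thus slightly higher in the limbus, with a log2 ratio of 0.27 (95% CI 0.19 to 0.34). Ctu2, with 381 and 358 reads, overlaps Piezo1 on the opposite strand, and the study's text does not say whether reads were counted by strand.

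Piezo2 (chromosome 18, 63010213 to 63387183, minus strand) went the other way, with 2935 corneal and 686 limbal reads, or 2839 and 709 normalized reads. The gene was 4.004-fold higher in the cornea (95% CI 3.68 to 4.36), a log2 ratio of -2.001 (95% CI -2.12 to -1.88). Counting error was small beside this difference. Among the reads of the pair, Piezo2 took 54.2% in the cornea (95% CI 52.9 to 55.5) and 19.7% in the limbus (95% CI 18.4 to 21.1). This share is taken within each library and does not depend on the scaling between them. Per kilobase of exon, Piezo2 was at 0.685 times the level of Piezo1 in the cornea and at 0.142 times in the limbus.

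Most markers of sensory neurons were at or near 0 in the cornea. Of 22 such markers, 15 had 3 reads or fewer in the cornea against 7 in the limbus, and 10 and 4 of them were at 0. The sodium channel genes Scn9a and Scn11a were at 0 in both libraries, and the neurofilament genes Nefl (3 and 48 reads) and Nefm (0 and 152 reads) had their reads in the limbus. The summed level of the list was 2393 corneal and 1987 limbal normalized reads, most of it from Ntrk2 with 2365 and 1409 reads, a neurotrophin receptor gene that is not confined to neurons. Markers of the corneal epithelium summed to 2370180 corneal and 1061210 limbal normalized reads. Keratocyte markers went both ways, with 4 of 7 leaning to the limbus and 2, Kera (12119 and 1423 reads) and Aldh1a1 (7369 and 1548 reads), to the cornea beyond counting error, and the list of 8 summed to 58321 and 64517 normalized reads. The part of these cell types in the Piezo2 result was not tested.

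**Figure D2:**
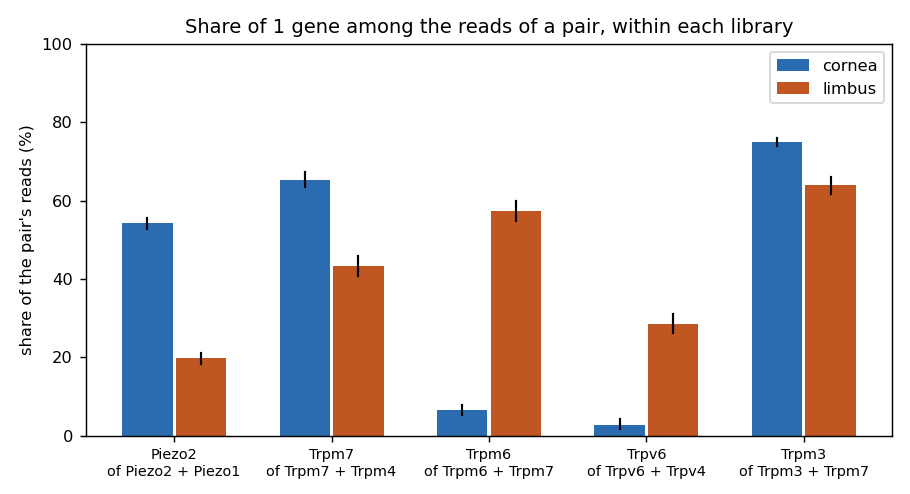
Share of the first gene among the reads of a pair (vertical axis, percent) in the cornea and the limbus library, with black lines for the 95% exact intervals. Piezo2 takes 54.2% of the corneal and 19.7% of the limbal Piezo reads, and Trpm6 goes from 6.54% to 57.4% of the Trpm6 and Trpm7 reads.

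Among the melastatin channels, Trpm7 encodes a channel joined to a protein kinase that lets magnesium, calcium and zinc in and is found in nearly every tissue. Trpm7 (chromosome 2, 126791565 to 126876230, minus strand) had 1501 corneal and 656 limbal reads, or 1452 and 678 normalized reads. The level was 2.14-fold higher in the cornea (95% CI 1.95 to 2.35), a log2 ratio of -1.10 (95% CI -1.23 to -0.97). Scaled to total reads the log2 ratio was -0.89, on the same side but under a fold of 2. The promoter stretch of Trpm7 is the one above with no motif match.

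Trpm4 encodes a channel that calcium opens from inside the cell and that passes sodium and potassium but not calcium. Trpm4 (chromosome 7, 45302632 to 45333780, minus strand) had 795 corneal and 858 limbal reads, or 769 and 887 normalized reads, with a log2 ratio of 0.21 (95% CI 0.06 to 0.35). This interval left out 0, but only just. Trpm7 made up 65.4% of the reads of this pair in the cornea (95% CI 63.4 to 67.3) and 43.3% in the limbus (95% CI 40.8 to 45.9), so the larger of the pair by reads changed between the tissues.

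The vanilloid channels spanned the widest range. Trpv6 encodes a channel that is highly selective for calcium and takes it up across epithelia such as those of the gut and placenta. Trpv6 (chromosome 6, 41620624 to 41636405, minus strand) had 19 corneal and 403 limbal reads, or 18.4 and 417 normalized reads. The level was 22.7-fold higher in the limbus (95% CI 14.3 to 38.0), a log2 ratio of 4.50 (95% CI 3.84 to 5.25). Trpv5, its neighbour on the chromosome and closest relative, had 1 corneal read and 10 limbal reads, or a log2 ratio of 3.42 (95% CI 0.60 to 8.86).

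Limbal and conjunctival epithelial markers moved to the same side as Trpv6. Of 8 such markers, 7 had over 3 reads in each library and all 7 lay on the limbal side beyond counting error, with log2 ratios from 1.86 to 5.16 and a summed level of 75295 corneal and 609162 limbal normalized reads. Krt4, a keratin of the conjunctiva and other mucosal epithelia, was the highest of them with 2138 and 71498 reads. The goblet cell mucin gene Muc5ac was at 1 read in each library, too few for a ratio. The study's methods describe separating the limbal rim from the conjunctiva, and how complete this was is not stated. The part of the conjunctival epithelium in the Trpv6 result was not tested.

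Trpv4 encodes a channel opened by osmotic swelling, warmth and lipid messengers. Trpv4 (chromosome 5, 114622152 to 114658421, minus strand) had 676 corneal and 1010 limbal reads, or 654 and 1044 normalized reads. Its level was 1.597-fold higher in the limbus (95% CI 1.45 to 1.76), a log2 ratio of 0.68 (95% CI 0.53 to 0.82). Of the pair Trpv4 and Trpv6, Trpv6 took 2.73% of the reads in the cornea (95% CI 1.65 to 4.24) and 28.5% in the limbus (95% CI 26.2 to 31.0).

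Trpv2 encodes a channel found in macrophages, muscle and some sensory neurons. Trpv2 (chromosome 11, 62574486 to 62600515, plus strand) had 0 corneal and 41 limbal reads, or 42.4 normalized reads there. Set against the 3 reads that a count of 0 allows in the cornea library, the gene was at least 14.6-fold higher in the limbus. This bound takes the 41 limbal reads as exact and leaves out their counting error. Leukocyte markers moved with it: 8 of 10 had over 3 reads in each library, all 8 lay on the limbal side beyond counting error, and the list summed to 6975 corneal and 15626 limbal normalized reads. The mast cell list went both ways. Its proteases Mcpt4 (0 and 139 reads) and Tpsb2 (0 and 101 reads) lay on the limbal side, and Kit (5165 and 2491 reads) on the corneal side. The 7 genes of that list summed to 5002 corneal and 2986 limbal normalized reads. Of the smooth muscle and pericyte markers, 7 were higher in the limbus and 1, Notch3, in the cornea. The part of these cell types in the Trpv2 result was not tested.

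Trpv3 and Trpv1 lie side by side on chromosome 11, Trpv1 from 73234292 to 73261242 and Trpv3 from 73267388 to 73300363, both on the plus strand. Trpv3 encodes a warmth-gated channel of keratinocytes. It had 18 reads in each library, or 17.4 and 18.6 normalized reads, and its log2 ratio of 0.10 (95% CI -0.93 to 1.12) showed no difference detectable with so few reads. Trpv1, the capsaicin and heat receptor of pain neurons, had 0 corneal and 1 limbal reads, both within what a count of 0 allows, and no fold is given.

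Trpc1 encodes a canonical channel subunit that joins with relatives and has been linked to calcium entry after the stores are emptied. Trpc1 (chromosome 9, 95705082 to 95750375, minus strand) had 12 corneal and 11 limbal reads, or 11.6 and 11.4 normalized reads. The log2 ratio was -0.03 (95% CI -1.35 to 1.28) and turned to 0.18 when scaled to total reads, so with this few reads neither a direction nor a difference could be read.

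**Figure D3:**
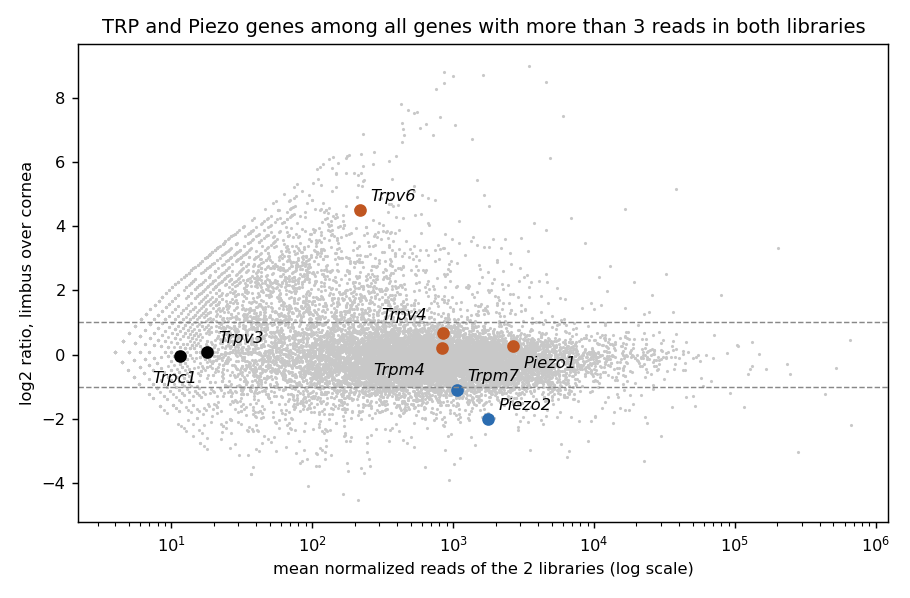
Log2 ratio of limbus over cornea against the mean normalized reads (log scale) for the 13862 genes with over 3 reads in each library (grey), with 8 of the 10 genes marked. Orange points are higher in the limbus beyond counting error, blue points higher in the cornea and black points neither, and dashed lines mark a fold of 2. Trpv6 lies above the main cloud at 4.50, Piezo2 lies below it at -2.001, and Trpv3 and Trpc1 lie at the low end of the reads.

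To compare levels between genes, the normalized reads were divided by the length of each gene's exons in the GENCODE annotation of GRCm38. Piezo1 had the highest level of the 10 in both tissues, 241 normalized reads per kilobase in the cornea (95% CI 232 to 251) and 290 in the limbus (95% CI 279 to 301). In the cornea it was followed by Piezo2 at 165 (95% CI 160 to 172), Trpv4 at 160 (95% CI 149 to 173), Trpm7 at 128 and Trpm4 at 71.0, and the intervals of Piezo2 and Trpv4 overlapped. A wide gap then led to Trpv6 at 4.67, Trpv3 at 2.98 and Trpc1 at 1.45 per kilobase, and the intervals of Trpv6 and Trpv3 overlapped, as did those of Trpv3 and Trpc1.

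In the limbus the order was another. After Piezo1 came Trpv4 at 256 per kilobase (95% CI 241 to 272), Trpv6 at 106 (95% CI 95.8 to 117), Trpm4 at 81.9 (95% CI 76.5 to 87.6), Trpm7 at 59.9 (95% CI 55.4 to 64.7) and Piezo2 at 41.3 (95% CI 38.3 to 44.5), and none of these intervals overlapped its neighbour. Trpv2 at 9.45, Trpv3 at 3.19, Trpc1 at 1.42 and Trpv1 at 0.281 closed the order, where the intervals of Trpv3 and Trpc1 overlapped and so did those of Trpc1 and Trpv1. Trpv6 moved from place 6 of the 10 in the cornea to place 3 in the limbus, and Piezo2 from place 2 to place 6. With the longest transcript as the length, Trpv4 and Trpm7 changed places in the cornea and Trpv6 and Trpm4 in the limbus.

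**Figure D4:**
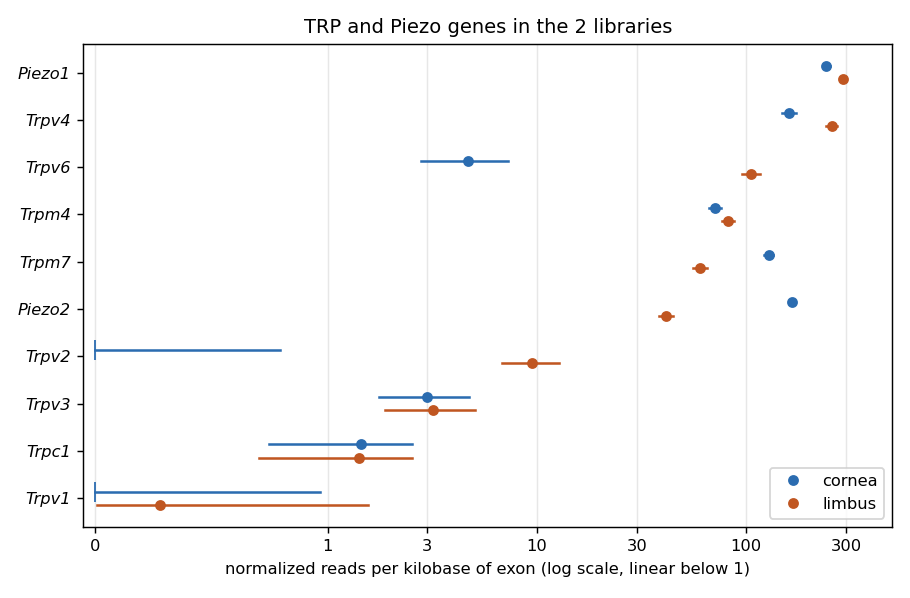
Normalized reads per kilobase of exon (horizontal axis, log scale, linear below 1) of the 10 genes in the cornea (blue) and the limbus (orange), with 95% exact intervals as lines and a tick where a library had 0 reads. Piezo1 is highest in both at 241 and 290, Trpv6 stands at 4.67 and 106, and Piezo2 at 165 and 41.3.

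Set among all genes with reads and a length in the same library, 14993 for the cornea and 15862 for the limbus, Piezo1 lay at percentile 73.9 of the corneal and 79.6 of the limbal levels, and Trpv4 at 65.4 and 77.6. Trpv6 stood at percentile 21.0 in the cornea and 59.99 in the limbus. Piezo2 stood at 66.0 and 42.5 and Trpm7 at 60.7 and 48.7. These percentiles are taken within a library and need no scaling between the libraries. In sum the 10 genes took 323 of every 1000000 corneal reads and 306 of every 1000000 limbal reads, and with the size factors they summed to 8160 corneal and 6690 limbal normalized reads. Piezo2 was 21.3% of their summed level per kilobase in the cornea against 4.86% in the limbus, and Piezo1 31.1% and 34.1%.

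The wider TRP family was read from all 30 symbols of the Trpa, Trpc, Trpm, Trpv, Mcoln, Pkd2 and Piezo groups. Of these, 14 had over 3 reads in each library, and 8 of the 14 are among the 10 genes above. Beyond counting error, 7 lay on the limbal side against 33.2% of all genes tested, 3 in the cornea against 40.6%, and 4 neither. The median log2 ratio was 0.20, or 0.54 over 20 genes with those at low reads in a library at their ratio or bound. Trpm7, Piezo2 and Trpm3 were the 3 on the corneal side. Trpm3 encodes a channel opened by heat and neurosteroids and is expressed in sensory neurons and pigmented epithelium of the eye. It had 4512 corneal and 1162 limbal reads, a log2 ratio of -1.86 (95% CI -1.96 to -1.77). Of 9 markers of the retina and ciliary body, 8 had over 3 reads in each library and all 8 had more normalized reads in the limbus, 7 beyond counting error, and their part in the Trpm3 result was not tested.

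Trpm6, the closest relative of Trpm7 and like it a magnesium channel joined to a kinase, went against Trpm7. Trpm6 had 105 corneal and 883 limbal reads, a log2 ratio of 3.17 (95% CI 2.87 to 3.47). It took 6.54% of the reads of the pair in the cornea (95% CI 5.38 to 7.86) and 57.4% in the limbus (95% CI 54.9 to 59.9). Per kilobase of exon, Trpm6 was at 0.103 times the level of Trpm7 in the cornea and at 1.97 times in the limbus.

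Trpm1, a channel of melanocytes and retinal bipolar cells, had 347 and 535 reads, with a log2 ratio of 0.72 (95% CI 0.52 to 0.92). Melanocyte markers, a list that holds Trpm1 itself, summed to 674 corneal and 2396 limbal normalized reads, with Tyr at 9 and 43 reads and Mlana at 7 and 132, and their part in the Trpm1 result was not tested. Pkd2, the polycystin channel of primary cilia, had 686 and 851 reads, with a log2 ratio of 0.41 (95% CI 0.26 to 0.55). Mcoln1, a lysosomal calcium channel, had 331 and 355 reads and an interval from -0.02 to 0.42. Trpc2, a pheromone-sensing channel of the vomeronasal organ, had 211 and 200 reads and an interval from -0.27 to 0.30, and the protein-coding genes Xndc1 and Xntrpc overlap it on the same strand, so counting could split its reads with theirs.

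Trpc6 encodes a channel opened by diacylglycerol in smooth muscle. It had 0 and 10 reads, at least 3.56-fold higher in the limbus with 0 set to 3 reads and the 10 taken as exact. Of 8 smooth muscle and pericyte markers with over 3 reads in each library, 7 lay on the limbal side beyond counting error. Among these were Acta2 with 40 and 730 reads and Myh11 with 8 and 277. Notch3 went the other way with 5755 and 3349 reads, and Des had 0 and 305. The part of these markers in the Trpc6 result was not tested.

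The cold receptor gene Trpm8 and the genes Trpc7 and Pkd2l1 were listed at 0 in both libraries. The irritant receptor gene Trpa1 had 0 corneal and 1 limbal reads, as did Trpc4 and Trpc5, and Trpm2, Trpm5, Mcoln2, Mcoln3 and Pkd2l2 had at most 6 reads in a library. A count of 0 allows up to 3 reads, which is 0.115 of every 1000000 corneal reads and 0.142 of every 1000000 limbal reads. Thus the best known thermal and irritant receptors of corneal nerves, Trpv1, Trpa1 and Trpm8, were all at or under this limit in both libraries, and no comparison between the tissues could be made for them.

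Store-operated calcium entry, in which STIM proteins sense an emptied calcium store and open ORAI channels, was nearly even between the tissues. All 6 genes of its list had over 3 reads in each library, and the median log2 ratio was 0.04. Beyond counting error, 2 lay on the limbal side against 33.2% of all genes tested, 1 in the cornea against 40.6%, and 3 neither. Saraf, an inhibitor of this entry listed under its older symbol Tmem66, was highest with 1791 and 2070 reads, with a log2 ratio of 0.30 (95% CI 0.21 to 0.40). Orai3 was lowest with 802 and 619 reads, with a log2 ratio of -0.28 (95% CI -0.43 to -0.12).

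Of 18 other mechanically gated and acid-sensing channel genes, 10 had over 3 reads in each library, with a median log2 ratio of 0.08. Beyond counting error, 4 lay on the limbal side against 33.2% of all genes tested, 1 in the cornea against 40.6%, and 5 neither. The stretch-gated potassium channel gene Kcnk2 was highest, with 5 corneal and 64 limbal reads, with a log2 ratio of 3.77 (95% CI 2.48 to 5.44). Mdfic, whose product is an auxiliary subunit of Piezo channels, was lowest, with 908 and 494 reads, with a log2 ratio of -0.78 (95% CI -0.94 to -0.62).

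Phospholipase C enzymes and the kinases that make their substrate PIP2 act on many TRP channels. Of the 14 genes of this list, 11 had over 3 reads in each library, around a median log2 ratio of 0.47. Beyond counting error, 6 lay on the limbal side against 33.2% of all genes tested, 2 in the cornea against 40.6%, and 3 neither. The lipase gene Plcb4 was highest with 216 and 408 reads, with a log2 ratio of 1.01 (95% CI 0.77 to 1.26), and the kinase gene Pip5k1a was lowest with 1039 and 691 reads, with a log2 ratio of -0.49 (95% CI -0.63 to -0.35). Pirt, a regulator of Trpv1 and Trpm8 in sensory neurons, was at 0 in both libraries.

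Calcium handling genes went both ways, around a median log2 ratio of 0.01. Beyond counting error, 4 of 11 were higher in the limbus against 33.2% of all genes tested, 5 in the cornea against 40.6%, and 2 neither. Itpr1 and Itpr3 encode receptors that release calcium from the stores, and they formed the ends of the list. Itpr1 had 126 corneal and 380 limbal reads, a log2 ratio of 1.69 (95% CI 1.39 to 1.99), and Itpr3 had 4228 and 2319, for a log2 ratio of -0.77 (95% CI -0.84 to -0.70). The calcium pump gene Atp2a3, of the same list and named after its values were seen, had 0 corneal and 73 limbal reads, at least 26.0-fold higher there.

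**Figure D5:**
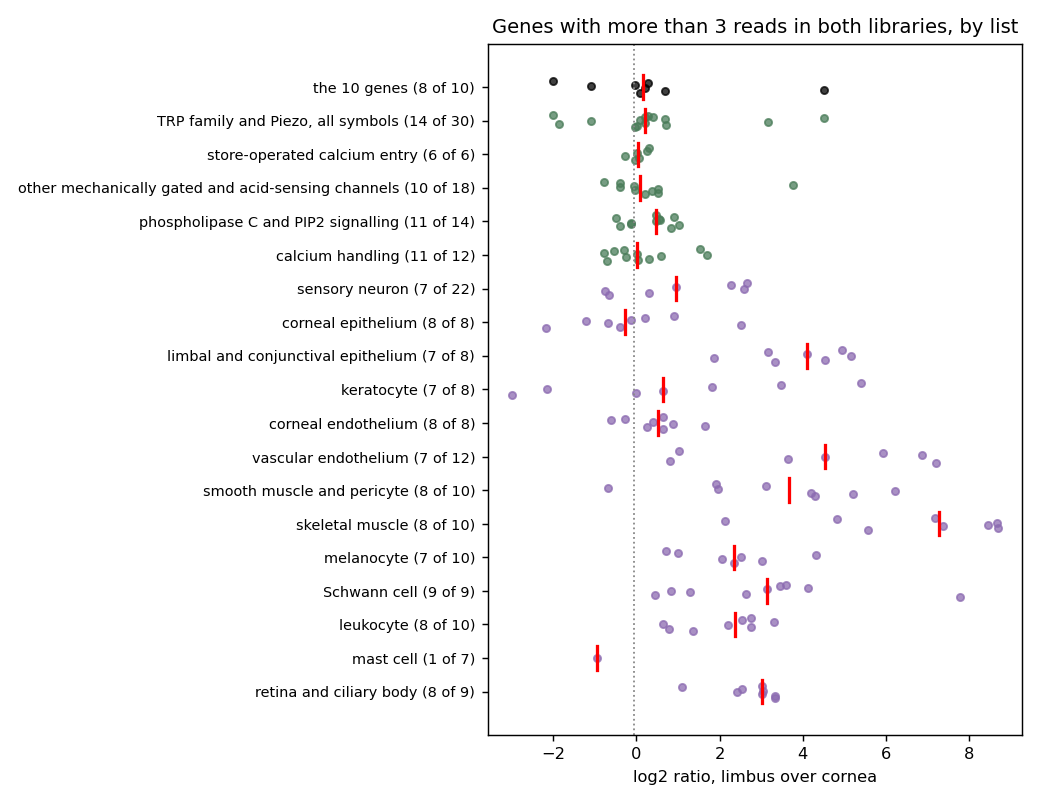
Log2 ratio of limbus over cornea for each gene with over 3 reads in each library, by list, with red bars for list medians, a dotted line for the median of all genes tested at -0.05, and the number plotted of the number listed in brackets. Channel and calcium lists (black and green) lie around 0 with a few genes far off, and most lists of other cell types (purple), such as skeletal muscle and vascular endothelium, lie far to the limbal side.

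Blood vessels, which the limbus holds and the normal cornea lacks, are another known site of Piezo1 and Trpv4. Of 12 vascular endothelial markers, 7 had over 3 reads in each library and all 7 lay on the limbal side beyond counting error, and the list summed to 656 corneal and 5882 limbal normalized reads. Pecam1 had 6 and 831 reads and Cdh5 had 3 and 421. Smooth muscle and pericyte markers summed to 5944 and 6882, with Notch3 (5755 and 3349 reads) making up most of the former. All 9 Schwann cell markers lay on the limbal side beyond counting error, and the lowest ratio was that of Mbp with 4334 and 5495 reads. Corneal endothelial markers, of which 5 of 8 leaned to the limbus and 2 to the cornea beyond counting error, summed to 29490 and 31231. In the mast cell list, 1 of 7 genes had over 3 reads in each library, Kit with 5165 and 2491 reads, a gene not confined to mast cells. The part of these cell types in the ratios of Piezo1 and Trpv4 was not tested.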

How the data were processed

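Limbal rims and corneal buttons of C57BL/6J mice were pooled by tissue, and stranded total RNA libraries were sequenced in pairs. The authors trimmed adaptors, aligned reads with CLC Genomics Workbench against GRCm38 (mm10) and name the trimmed mean of M-values for normalization. The authors deposited, gene by gene, a normalized signal averaged over the libraries and the columns of their own comparison: a log2 fold change of cornea over limbus, its standard error (a score here) and p-values before and after adjustment. None of those fold changes or p-values is given here. A further column of the authors' own accession numbers did not match the gene symbols and was not used.

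The deposited means are sums of whole reads of 2 libraries divided by size factors. For 17441 of 17442 genes with a mean above 0, the mean lay within 0.01 of a whole number of steps. The mean alone fixed both read numbers for 6143 genes, among them Trpv1, Trpv2, Trpv3 and Trpc1. For the other 11299 a shrinkage model was fitted to the deposited log2 fold changes and standard errors, and the pair that met both to within 0.001 was taken, so reads are derived values. The recovery was tested on simulated data made with the same model, which cannot show whether the deposited values follow that model. The 17484 rows without a gene name stayed out of all totals. The design allowed for a count table, and with 1 library per tissue no test was run and ratios with exact intervals at the 95% level are given. A library with 0 reads was set to 3 reads for a lower bound, and the reads of the other library were taken as exact. Alternatives were scaling to total reads, a trimmed mean of M-values trimming 30% of log ratios and 5% of mean log values at each end, a pseudocount of 1, a fold of 1.5, a mean of at least 50, a 99% interval and the longest transcript as length. The members and lists were chosen with earlier results of these data known. The rule named the 10 members, other TRP genes above 3 reads in each library or with at least 10 in 1, and the highest and lowest gene of each other list. Further TRP genes and markers were named after their values were seen. The values of some genes of these lists are not reported here. Positions and lengths are from GENCODE vM21. Python 3.11.15, numpy 2.4.6, pandas and scipy were used.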

Additional observations from a re-analysis of the deposited data

How the results depend on the processing

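No gene among the 10 with a ratio beyond counting error changed direction under any alternative run. Scaling to total reads gave log2 ratios of 0.88 for Trpv4, 0.41 for Trpm4, -0.89 for Trpm7, 0.47 for Piezo1 and -1.80 for Piezo2, a median of 0.36, and 1 gene at least 2-fold higher in the cornea in place of 2. These shifts follow from the construction, since that scaling adds 0.21 to each ratio. A fold of 1.5 gave 2 genes on the limbal side in place of 1. The trimmed mean of M-values added 0.02 and left all 14 values it was run on within counting error or their count. A pseudocount of 1 moved none of the 8 genes with reads in both libraries beyond counting error and left their median at 0.15. Trpv1 has no ratio under any setting. The counts beyond counting error, 4 and 2, were the same with a 99% interval and among the 6 genes whose mean reached 50. With the longest transcript as length, Trpv4 took place 4 and Trpm7 place 3 in the cornea, and Trpv6 took place 4 and Trpm4 place 3 in the limbus. Trpv1, Trpv2, Trpv3 and Trpc1 are limited by depth. No paired analysis was possible because the table holds 1 mean over both libraries and no value for a numbered sample, and leaving out replicates was not run for the same reason.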
